A study of Mus musculus with 16 samples.

Results

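The genes described here activate fatty acids, carry them into mitochondria and break them down by beta oxidation in mitochondria and peroxisomes. With them are the regulators that set their transcription and Pdk4, a kinase of pyruvate dehydrogenase. They were chosen by name: 34 genes were listed, and a gene was followed through the probe sets that carry its symbol and no other. Of the 34, 32 had such a probe set (61 probe sets in all) among 18193 genes on the array, and 30 were bright enough to test among 11908 genes. The study sorted macrophages out of perigonadal fat and put their RNA on 16 arrays. Lean mice were C57BL/6J Lep +/+ and obese mice C57BL/6J Lep ob/ob, all 12 to 14 weeks old. From each genotype FB macrophages (carrying CD11b and the antigen encoded by Adgre1, without CD11c) and FBC macrophages (carrying all 3) were sorted, giving 4 arrays for each of the 4 groups. Lep ob/ob mice lack functional leptin in all tissues, so effects of obesity and of the missing hormone cannot be told apart here.

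Fatty acids become fuel after acyl-CoA synthetases (Acsl genes) have joined them to coenzyme A. The carnitine shuttle (Cpt1a, Slc25a20, Cpt2) moves long acyl chains into the mitochondrial matrix, where acyl-CoA dehydrogenases, hydratases, hydroxyacyl dehydrogenases and thiolases shorten them in repeated cycles, and the Etf proteins pass the electrons to the respiratory chain. Peroxisomes shorten chains by a parallel set of enzymes, and the nuclear receptors of the PPAR family, helped by PGC-1 coactivators, induce many of these genes. In macrophages fatty acid oxidation is best known from interleukin 4 activation, and adipose tissue macrophages of obese animals take up large amounts of lipid.

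Levels are log2(intensity + 16) after quantile normalization, on which scale the median probe set of an array lies at 5.87. Differences are log2 differences ± SE from limma, fitted over all 11908 genes, with Benjamini-Hochberg adjusted p and a threshold of 0.05, and the scale understates the change of dim genes. A gene rose, fell or passed where its adjusted p was under 0.05. Precision is limited by how many arrays there are, and a p-value covers array-to-array spread only. Levels of different genes are not compared, since each probe set has its own sensitivity.

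The macrophage markers were present on every array: all 10 listed (among them Adgre1, Csf1r and Cd68) lay above the array median on all 16, with summed intensity between 44988 and 68758. With obesity 0 of the 10 were called in FB, against 5.89% of all genes. In FBC 2 rose, Adgre1 (1.08 ± 0.24, adjusted p = 0.00668) and Fcgr1 (0.96 ± 0.28, adjusted p = 0.0307), against 8.12% of all genes. There 1 fell, Aif1 (-1.07 ± 0.30, adjusted p = 0.0252), against 5.95%, and Cd68 did not pass (1.01 ± 0.33, adjusted p = 0.0525). The part of these shifts in the results below was not tested. Itgax, which encodes CD11c, exceeded its FB level in FBC of both genotypes (lean 1.49 ± 0.26 with adjusted p = 0.0213, obese 2.20 ± 0.26 with adjusted p = 0.000111). Transcripts of adipocytes, cells rich in the enzymes described here, were not equal between groups. The summed intensity of 16 adipocyte markers ranged over 2098 to 6076 for lean FB, 1426 to 7011 for lean FBC, 445 to 668 for obese FB and 514 to 1084 for obese FBC, and every lean array lay above every obese array. Adipoq, which encodes adiponectin, averaged 6.86 and 7.02 in lean FB and FBC, and 5.19 and 6.15 in obese FB and FBC. Car3 gave most of the sum on the lean arrays, averaging 11.92 and 11.78 in lean FB and FBC, and 7.60 and 8.15 in obese FB and FBC. The sum without Car3 was not computed. Of the 16 markers 8 were bright enough to test. With obesity 0 rose and 4 fell in FB, against 1.81% and 4.07% of all genes. In FBC 1 rose, Lep (1.12 ± 0.36, adjusted p = 0.049), and 2 fell, against 8.12% and 5.95%. The sum of 18 fibroblast and preadipocyte markers was 20444 to 51363, 18526 to 37334, 14352 to 15910 and 18998 to 28518 in the order lean FB, lean FBC, obese FB, obese FBC. In bulk samples fewer cells of a type and less RNA per cell cannot be told apart. The actin signal at the 3' end divided by that at the 5' end, a measure of RNA integrity, was above 40 on 3 arrays (lean FB 4, lean FBC 4 and obese FB 4) and at most 10.9 on the other 13. The same ratio for Gapdh was 26.5, 41.5 and 27.99 on those 3 arrays, 28.1 on obese FBC array 3 and at most 14.2 on the other 12. Lean FB array 4 also had an eosinophil marker sum of 6692, where the remaining lean FB arrays had 425 to 569.

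The sequences before the starts of 3 of the genes are shown as background, and no result rests on them. Each is the 250 bases before the start listed for the gene and lies outside the annotated gene, 5' to 3' on the gene's own strand, from RefSeq (GRCm38.p6). Capitals mark AGGTCA or its reverse complement, the hexamer that nuclear receptors such as the PPARs recognise; the Pdk4 and Hadha sequences hold none. Acadm encodes medium-chain acyl-CoA dehydrogenase, Pdk4 a kinase that shuts off pyruvate dehydrogenase and Hadha the alpha subunit of the mitochondrial trifunctional protein.
Acadm, chr3:153944644-153944893, minus strand: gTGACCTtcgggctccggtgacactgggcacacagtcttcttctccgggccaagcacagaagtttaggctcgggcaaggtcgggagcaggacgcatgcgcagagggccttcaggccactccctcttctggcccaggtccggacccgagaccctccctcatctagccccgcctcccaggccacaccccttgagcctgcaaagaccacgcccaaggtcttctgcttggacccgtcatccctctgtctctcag
Pdk4, chr6:5496279-5496528, minus strand: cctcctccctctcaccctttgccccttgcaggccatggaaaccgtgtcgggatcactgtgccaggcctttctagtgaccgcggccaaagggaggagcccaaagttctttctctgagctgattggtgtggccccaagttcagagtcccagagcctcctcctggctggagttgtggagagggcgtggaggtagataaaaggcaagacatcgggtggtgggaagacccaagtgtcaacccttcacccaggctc
Hadha, chr5:30154981-30155230, minus strand: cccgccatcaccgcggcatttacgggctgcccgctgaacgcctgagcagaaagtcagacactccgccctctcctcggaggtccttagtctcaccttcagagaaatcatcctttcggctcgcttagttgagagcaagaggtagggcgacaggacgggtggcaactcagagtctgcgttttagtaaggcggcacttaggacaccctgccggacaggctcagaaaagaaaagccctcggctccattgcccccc
Of the 34 genes, 28 had a RefSeq window, 31 windows in all, 1 for each listed start, and a window can lie inside a gene that has several starts, as for Pparg. The hexamer AGGTCA, on either strand, was in 6 of the 31 windows, belonging to Acadm, Acadvl, Cpt1a, Echs1 and Pparg, and in 14.0% of 32851 windows of the same length over all genes. The direct repeat that PPAR binds with its partner RXR (AGGTCA repeated with any 1 base between the copies, searched on both strands) was in 0 of the 31 and in 0.0335% of all windows. The estrogen-related receptor motif TNAAGGTCA (N is any base), which contains the hexamer and was searched on both strands, was in 0 of the 31 and in 1.14% of all. A match is a string of letters and not a measured site. Hadha and Hadhb, the 2 subunits of the trifunctional protein, are read away from each other with 272 bases between their starts on chromosome 5, so the Hadha sequence above lies wholly between both genes.

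The first comparison asks how obesity changed these genes in FBC macrophages, the cells with CD11c. Enzymes of mitochondrial beta oxidation rose: Acadm 2.02-fold, Acaa2 2.29-fold and Acadl 1.497-fold, with Hadha, dim in lean FBC, up by 1.24 on the log2 scale, together with Cpt2 (1.93-fold), the inner-membrane carnitine palmitoyltransferase. Pparg rose 1.60-fold and Pdk4 fell 1.82-fold. In all 6 of 30 tested members rose and 1 fell, against 8.12% and 5.95% of all genes tested (14.1% called in either direction). The median change of the 30 was 0.18, beside 0.08 for all genes. Of the 30, 11 had an unadjusted p under 0.05, against 28.9% of all genes. The groups did not overlap for 7 members, all higher in obese FBC, where 12.4% of all genes were apart in that direction, 7.61% in the other and 20% in either. Of the 12 enzymes of mitochondrial beta oxidation 4 rose and 0 fell, with a median change of 0.39.

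Acadm, which starts the cycle for medium chains, was at 9.92, 9.91, 9.82 and 9.41 on the 4 lean FBC arrays and at 11.04, 10.67, 10.75 and 10.66 on the obese ones (1.02 ± 0.21, adjusted p = 0.00507). Every obese FBC array lay above every lean one, and above every FB array of either genotype. Acadl, the long-chain dehydrogenase, was at 10.04, 10.19, 10.35 and 10.18 in lean and at 10.74, 10.75, 10.77 and 10.84 in obese FBC (0.58 ± 0.16, adjusted p = 0.027). The obese arrays spread by an SD of 0.04 (n = 4). The very-long-chain and short-chain dehydrogenases Acadvl (0.36 ± 0.31, adjusted p = 0.469) and Acads (-0.03 ± 0.20, adjusted p = 0.953) did not pass. For Acads the 95% interval ran from -0.45 to 0.40.

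Acaa2, the matrix thiolase that cuts off acetyl-CoA, was at 9.35, 9.34, 9.52 and 9.57 in lean FBC and at 9.87, 11.30, 11.35 and 10.04 in obese FBC (1.19 ± 0.28, adjusted p = 0.0111). The obese arrays split into a pair near 10 and a pair above 11, all above the lean arrays. Arrays 2 and 3, the higher pair, also had the higher fibroblast marker sums of obese FBC, 26620 and 28518 against 18998 and 19389, and endothelial sums of 984 and 1129 against 459 and 592. Array 3 also had the high Gapdh ratio. The part of these in the result was not tested. Hadha was at 6.12, 5.58, 6.31 and 6.67 in lean and at 8.03, 7.15, 6.83 and 7.65 in obese FBC (1.24 ± 0.36, adjusted p = 0.0314). Hadhb, its partner subunit, was at 12.30 ± 0.11 and 12.49 ± 0.23 (SD, n = 4 each) and did not pass (0.19 ± 0.16, adjusted p = 0.479). A second Hadhb probe set changed by 0.92 ± 0.34 (adjusted p = 0.128 over all probe sets) and another, near the array median, by 0.20 ± 0.38 (adjusted p = 0.828). None of the 3 was called.

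Cpt2, which hands acyl groups back to coenzyme A inside the matrix, was at 7.53, 7.86, 7.93 and 8.21 in lean FBC and at 8.53, 9.58, 8.40 and 8.82 in obese FBC (0.95 ± 0.26, adjusted p = 0.023). The groups did not overlap. Cpt1a, the outer-membrane transferase that controls entry, was at 10.70 ± 0.28 and 10.64 ± 0.67 (SD, n = 4 each) in lean and obese FBC (-0.06 ± 0.31, adjusted p = 0.928), with a 95% interval from -0.71 to 0.59. Its further probe sets changed by 0.49 ± 0.27 and -0.25 ± 0.24 (adjusted p = 0.347 and 0.607 over all probe sets). Between FBC and FB of obese mice these differed by 0.80 ± 0.27 and 0.11 ± 0.24 (adjusted p = 0.129 and 0.87). The carrier Slc25a20, which exchanges acylcarnitine for carnitine across the inner membrane, was at 11.003, 11.60, 11.50 and 12.36 in lean FBC and 10.87, 10.89, 11.06 and 10.64 in obese FBC (-0.75 ± 0.25, adjusted p = 0.0542). Lean array 4, the highest, was 1 of the 3 arrays of high actin ratio, and 1 lean array lay inside the obese range. So of the 3 steps of the shuttle only Cpt2 passed. Slc25a20 changed downward without passing, and the sign for Cpt1a depended on the probe set.

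Pparg, which encodes the lipid-sensing receptor PPAR gamma, was at 7.87, 8.32, 8.72 and 8.30 in lean FBC and at 9.06, 8.82, 8.78 and 9.26 in obese FBC (0.68 ± 0.20, adjusted p = 0.0346), without overlap. Pdk4 was at 7.46, 8.24, 8.25 and 7.46 in lean and at 6.47, 7.12, 7.68 and 6.67 in obese FBC (-0.87 ± 0.28, adjusted p = 0.046). Obese array 3 lay above 2 of the lean arrays, and it had the largest adipocyte marker sum of the obese arrays, 1084. The coactivator gene Ppargc1b, which encodes PGC-1 beta, was at 8.03 ± 0.45 and 7.39 ± 0.30 (SD, n = 4 each) in lean and obese FBC (-0.64 ± 0.26, adjusted p = 0.115), and Ppard, another PPAR receptor, at 6.17 ± 0.27 and 6.00 ± 0.43 (SD, n = 4 each), a difference of -0.17 ± 0.22 (adjusted p = 0.667).

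Several of these calls ended when 1 array was left out, while those of Acadm and Acaa2 held without each of the 16. The count of 7 was 2 without lean FBC array 2, 2 without obese FBC array 2, 4 without lean FBC array 1 and 4 without obese FBC array 4. Leaving out the 3 high-ratio actin arrays together gave 8, and all 7 calls held. Adjusted p was 0.063, 0.0553 and 0.0785 for Cpt2 without lean FBC arrays 1 and 2 and obese FBC array 2. For Acadl it was 0.0619 and 0.0647 without lean FBC arrays 1 and 2, and 0.0569, 0.0509 and 0.0617 without obese FBC arrays 2, 3 and 4. For Hadha it was 0.0617, 0.101 and 0.0506 without lean FBC arrays 1, 2 and 3, and 0.0891, 0.0509 and 0.076 without obese FBC arrays 1, 2 and 4. For Pparg it was 0.0951, 0.0727 and 0.0562 without lean FBC arrays 1, 2 and 4, and 0.0728, 0.0524 and 0.0971 without obese FBC arrays 1, 2 and 4. The Pdk4 call ended without any of lean FB arrays 1 and 3 (0.0571 and 0.057), lean FBC arrays 2 and 3 (0.133 and 0.124), obese FB arrays 1, 2 and 3 (0.0536, 0.0575 and 0.0512) and obese FBC arrays 1, 2 and 4 (0.129, 0.0785 and 0.12).

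**Figure D1:**
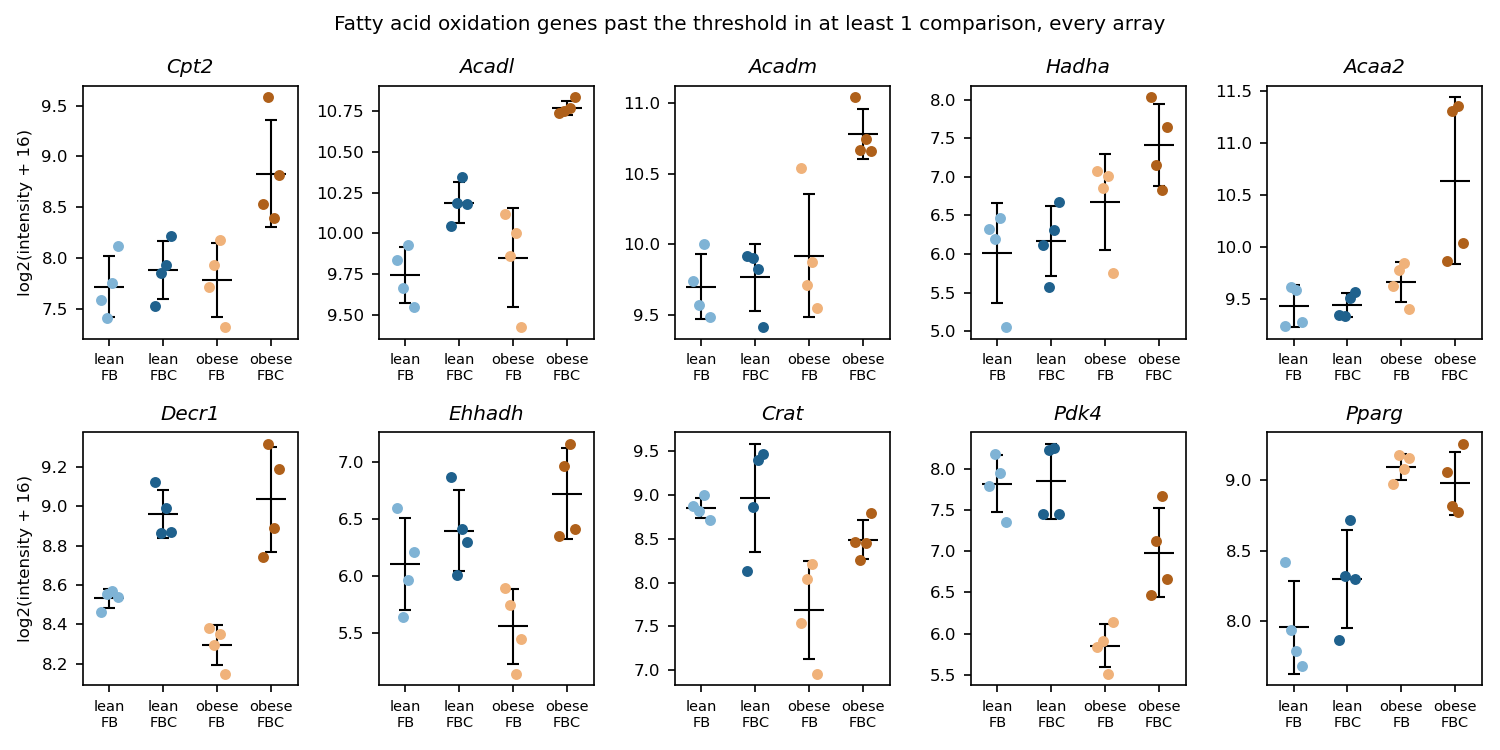
Levels of the 10 genes past the threshold in at least 1 comparison, as log2(intensity + 16) on the y axis of each panel (axes do not start at 0), for the 4 groups on the x axis. Coloured points are arrays in order of replicate number and black bars the mean ± SD (n = 4); the obese FBC arrays of Acadm lie between 10.66 and 11.04, above all other arrays.

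In FB macrophages, the cells without CD11c, obesity changed 3 members. Pdk4 fell by 1.97 on the log2 scale, to the array median, Pparg rose 2.21-fold, and Crat, the carnitine acetyltransferase that buffers acetyl-CoA, fell 2.25-fold. In all 1 of 30 tested members rose and 2 fell, against 1.81% and 4.07% of all genes tested (5.89% in either direction). None of the 12 enzymes of mitochondrial beta oxidation passed by limma, and 0 had an unadjusted p under 0.05. The median change of the 30 was 0.08, beside 0.03 for all genes, and 5 had an unadjusted p under 0.05, against 20.2% of all genes.

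Pdk4 was at 7.79, 8.18, 7.96 and 7.36 on the lean FB arrays and at 5.84, 5.90, 5.51 and 6.15 on the obese ones (-1.97 ± 0.28, adjusted p = 0.000512). All obese FB arrays lay close to the array median of 5.87, so the size of the fall is imprecise and no fold is given. Pparg was at 8.42, 7.94, 7.79 and 7.68 in lean and at 8.97, 9.18, 9.08 and 9.16 in obese FB (1.14 ± 0.20, adjusted p = 0.00279). Pdk4 and Pparg thus went in opposite directions, each without overlap. The lean FB arrays also had the higher adipocyte marker sums, all above those of the obese FB arrays. The same held for the fibroblast and preadipocyte sums, 20444 to 51363 against 14352 to 15910. Of 17 such markers tested 7 fell and 0 rose in obese FB, and of 8 mesothelial markers 2 fell and 0 rose, against 4.07% and 1.81% of all genes. The part of RNA from any of these cells in the Pdk4 result was not tested. The 2 lean number 4 arrays, with adipocyte sums of 2098 and 1426 where the other lean arrays had at least 5074, were at 7.36 and 7.46 for Pdk4. Both had a high actin ratio, and 7.36 was the lowest Pdk4 value of the lean arrays. Lean FBC array 1, with an adipocyte sum of 5074, was at 7.46 too.

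**Figure D2:**
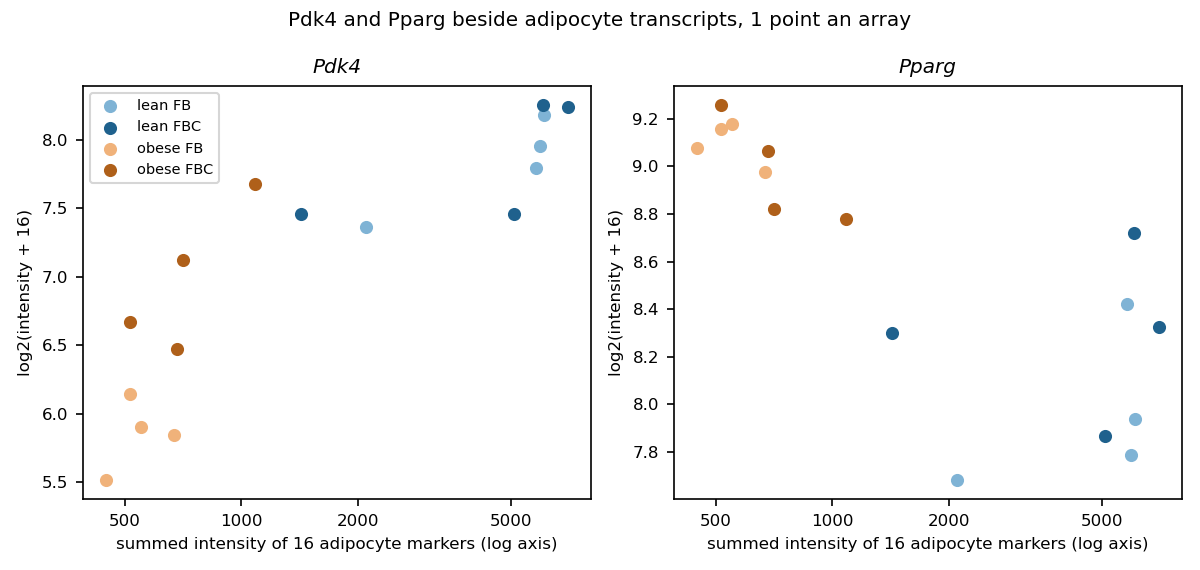
Pdk4 (left) and Pparg (right) as log2(intensity + 16) on the y axis, against the summed deposited intensity of 16 adipocyte markers on the x axis (log axis), 1 point for each of the 16 arrays, coloured by group. Car3 gave most of the sum on the lean arrays. The lean arrays stand at sums of 1426 to 7011 and the obese arrays at 445 to 1084; Pdk4 is at 7.36 or above on all lean arrays, and Pparg at 8.78 or above on all obese arrays.

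Crat was at 8.87, 8.82, 9.001 and 8.72 in lean FB and at 7.53, 8.04, 8.21 and 6.96 in obese FB (-1.17 ± 0.29, adjusted p = 0.0244). The groups did not overlap, and array 4, of high actin ratio, was the lowest of the obese FB arrays. Its 2 other probe sets changed by -0.43 ± 0.25 and -0.04 ± 0.33, neither called (adjusted p = 0.459 and 0.976 over all probe sets), and with the mean of the 3 the Crat difference was -0.55, adjusted p = 0.224. The Crat call also ended without lean FB arrays 1, 2 and 3 (adjusted p = 0.0632, 0.068 and 0.0799) and obese FB arrays 1 and 4 (0.0632 and 0.059). Without the 3 arrays of high actin ratio together it held (-0.96, adjusted p = 0.026), as did Pdk4 (-2.23, adjusted p = 0.000157) and Pparg (1.02, adjusted p = 0.00724). Without lean FB array 1, 2 or 3 or obese FB array 1 or 4, the count of 3 was 2.

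Among the FB changes that did not pass, Ppargc1b was at 8.35, 7.33, 7.65 and 7.11 in lean and between 6.84 and 7.12 in obese FB (-0.61 ± 0.26, adjusted p = 0.201). Ehhadh, the peroxisomal bifunctional enzyme, changed by -0.54 ± 0.25 (adjusted p = 0.241). The acyl-CoA synthetase gene Acsl3 changed by -0.38 ± 0.19 (adjusted p = 0.273). Hadha was at 6.32, 6.20, 6.46 and 5.05 in lean FB and at 7.08, 6.86, 7.01 and 5.76 in obese FB (0.67 ± 0.36, adjusted p = 0.322), lowest in each group on array 4, of high actin ratio. Hadhb and Decr1, the reductase needed for unsaturated chains, had FB arrays that did not overlap between genotypes, Hadhb higher (0.33 ± 0.16, adjusted p = 0.268) and Decr1 lower (-0.24 ± 0.15, adjusted p = 0.414) in obese mice. With these, 2 members had groups apart and higher in obese FB (5.52% of all genes) and 3 apart and lower (6.32%), 11.8% of all genes being apart in either direction.

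**Figure D3:**
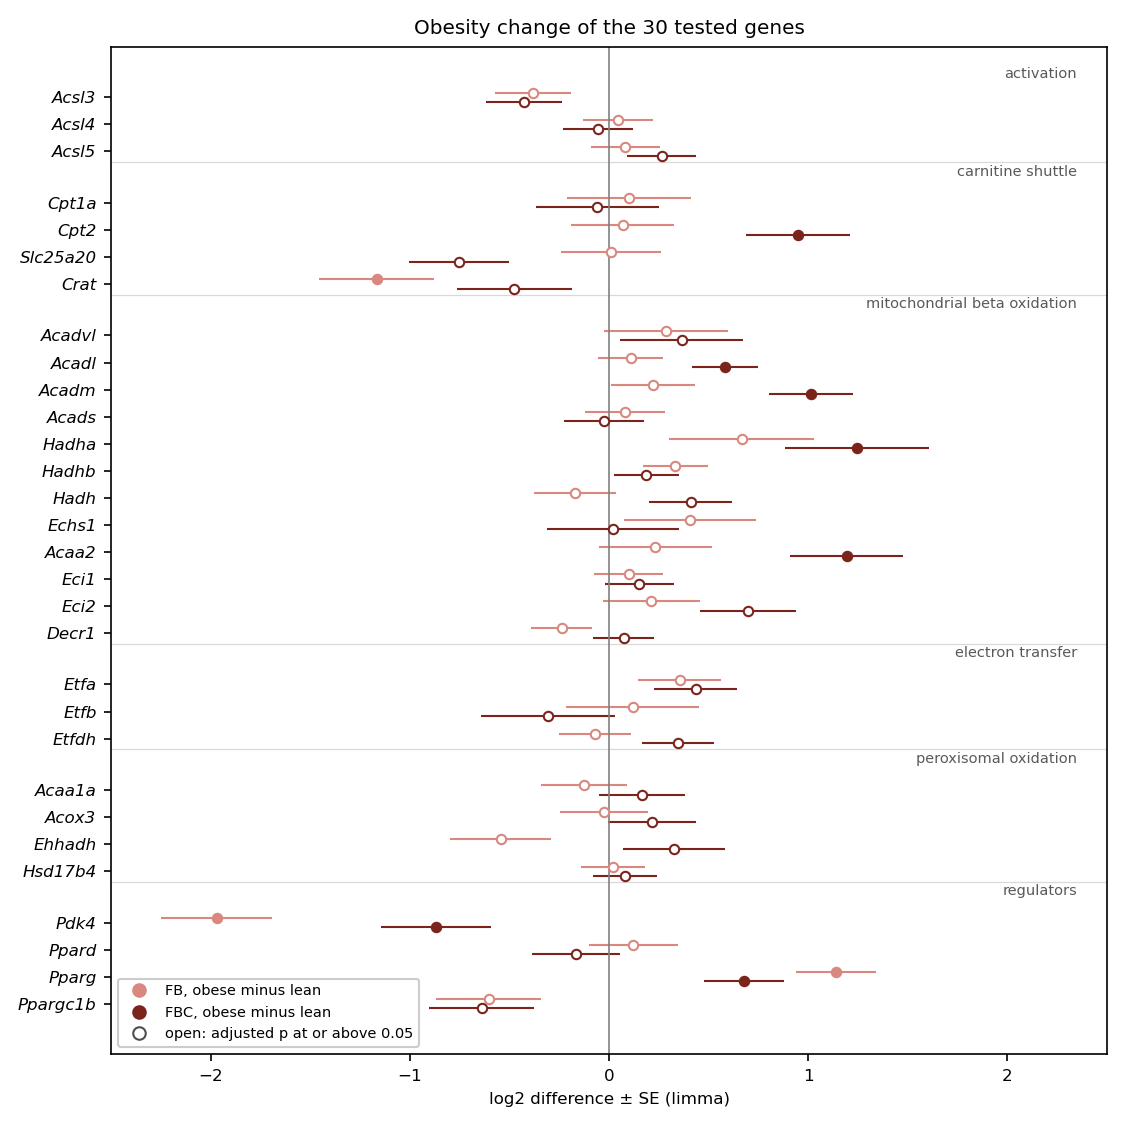
Change with obesity of the 30 tested genes, as the log2 difference of obese minus lean on the x axis with its SE from limma, for FB (light) and FBC (dark), grouped by role on the y axis. Filled points have an adjusted p under 0.05; in FBC these are Cpt2, Acadl, Acadm, Hadha, Acaa2 and Pparg above 0 and Pdk4 below, and in FB Crat, Pdk4 and Pparg.

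Of the 8 members that changed with obesity in either population, 2 (Pdk4 and Pparg) passed in both, 5 in FBC alone and 1 in FB alone. A call in 1 population does not show that the populations differ, so the difference of the obesity effect was tested. It passed for 0 of 30 members by limma, against 0.16% of all genes (0.084% higher, 0.0756% lower). Without adjustment 6 members had p under 0.05, as did 13.2% of all genes. The 6 were Pdk4 (1.10 ± 0.39, adjusted p = 0.239), Acaa2 (0.96 ± 0.40, adjusted p = 0.316), Cpt2 (0.88 ± 0.37, adjusted p = 0.315), Ehhadh (0.87 ± 0.36, adjusted p = 0.313), Acadm (0.79 ± 0.30, adjusted p = 0.275) and Slc25a20 (-0.76 ± 0.35, adjusted p = 0.365). These were the 6 interactions with the smallest p, named after their values were seen. On simulated arrays of this design, 21 of 100 interactions of 1 log2 unit and 71 of 100 of 2 units were recovered. The simulated noise was independent and of equal spread on all arrays, and few genes were changed. The real arrays differ in RNA integrity and come from shared mice, so these shares are a rough guide and not the power of the tests.

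FBC against FB in obese mice asks how the populations of obese fat differ. Beta oxidation enzymes were higher in FBC: Acadl 1.89-fold, Acadm 1.82-fold, Acaa2 1.96-fold and Decr1 1.67-fold, with Cpt2 2.07-fold. Ehhadh and Pdk4 were higher too, but their obese FB arrays lay near the array median of 5.87, so their log2 differences of 1.16 and 1.13 are imprecise and no fold is given. Of 30 tested members 7 were higher and 0 lower, against 5.11% and 3.28% of all genes tested (8.39% in either direction). The median difference was 0.28, beside 0.08 for all genes. The groups did not overlap for 10 members, all higher in FBC, against 11% of all genes apart in that direction and 6.63% in the other. Of the 30, 10 had an unadjusted p under 0.05, against 25.1% of all genes. This comparison shares its obese arrays with the obesity comparisons above, so the values of Cpt2, Acadl, Acadm, Acaa2 and Pdk4 are not independent of those.

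Acadl had the smallest adjusted p of the members, with 10.12, 9.86, 10.00 and 9.43 in obese FB beside the FBC values given above (0.92 ± 0.16, adjusted p = 0.00256). Acadm was at 10.54, 9.71, 9.88 and 9.55 in obese FB (0.86 ± 0.21, adjusted p = 0.0185), array 1 being close to the lowest FBC array, 10.66. Decr1 was at 8.38, 8.29, 8.35 and 8.15 in FB and at 8.74, 9.32, 8.89 and 9.19 in FBC (0.74 ± 0.15, adjusted p = 0.00659). Its second probe set was higher in FBC too (0.77 ± 0.18, adjusted p = 0.0229 over all probe sets). Neither Decr1 probe set was called with obesity in FBC, and the mean of its brightest probe set was 8.53 in lean FB, 8.29 in obese FB, 8.96 in lean FBC and 9.04 in obese FBC.

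Ehhadh was at 5.89, 5.74, 5.15 and 5.45 in obese FB and at 6.35, 6.96, 7.15 and 6.41 in obese FBC (1.16 ± 0.25, adjusted p = 0.00959). In FB 3 of the 4 arrays were under the median intensity of the array. Cpt2 was at 7.71, 7.93, 8.18 and 7.32 in obese FB (1.05 ± 0.26, adjusted p = 0.0192), Acaa2 at 9.63, 9.78, 9.84 and 9.41 (0.97 ± 0.28, adjusted p = 0.0436). For Pdk4 the difference was 1.13 ± 0.28 (adjusted p = 0.0181), with every FBC array above every FB array. Pparg, higher with obesity in both populations, did not differ past the threshold between them (-0.12 ± 0.20, adjusted p = 0.759, 95% interval -0.54 to 0.31).

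Etfdh, the oxidoreductase that feeds electrons into the ubiquinone pool, was at 8.74, 9.04, 8.87 and 9.03 in obese FB and 9.28, 9.75, 9.88 and 9.14 in obese FBC and missed the threshold (0.59 ± 0.18, adjusted p = 0.0542). Etfa, the alpha subunit of electron transfer flavoprotein, had every FBC array above every FB array and did not pass (0.47 ± 0.21, adjusted p = 0.17), and Etfb, the beta subunit, spread from 8.19 to 10.15 in obese FBC (-0.11 ± 0.34, adjusted p = 0.869). Crat, at 8.46, 8.26, 8.45 and 8.79 in obese FBC, was also apart between the populations (0.80 ± 0.29, adjusted p = 0.0939). Ehhadh, Etfdh, Pdk4 and Acaa2 were each highest on obese FBC arrays 2 and 3, those of the high fibroblast and endothelial sums, array 3 being that of the high Gapdh ratio. The neutrophil marker sum was 352 to 1492 in obese FBC and 976 to 3698 in obese FB, and the adipocyte sum reached 1084 in FBC and 668 in FB. Their part in these differences was not tested.

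The count of 7 was 4 without obese FB array 4 and 4 without obese FBC array 2, and 7 without the 3 arrays of high actin ratio, where the Acaa2 call ended (adjusted p = 0.0862) and Etfdh passed. The calls of Acadl, Decr1 and Ehhadh held without each of the 16 arrays. Adjusted p for Cpt2 was 0.0679 and 0.0692 without obese FB array 4 and obese FBC array 2. For Acadm it was 0.0595, 0.0635 and 0.0509 without obese FB arrays 2 and 4 and obese FBC array 1, and for Pdk4 0.0532, 0.0576 and 0.0588 without obese FB array 3 and obese FBC arrays 2 and 3. The Acaa2 call held in 4 of the 16, without lean FB array 4, lean FBC array 4 and obese FBC arrays 1 and 4. Without each lean FB or lean FBC array 1, 2 or 3 its adjusted p was 0.052 to 0.0567, without obese FB arrays 1 to 4 it was 0.0699, 0.0741, 0.0618 and 0.114, and without obese FBC arrays 2 and 3 it was 0.145 and 0.124.

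**Figure D4:**
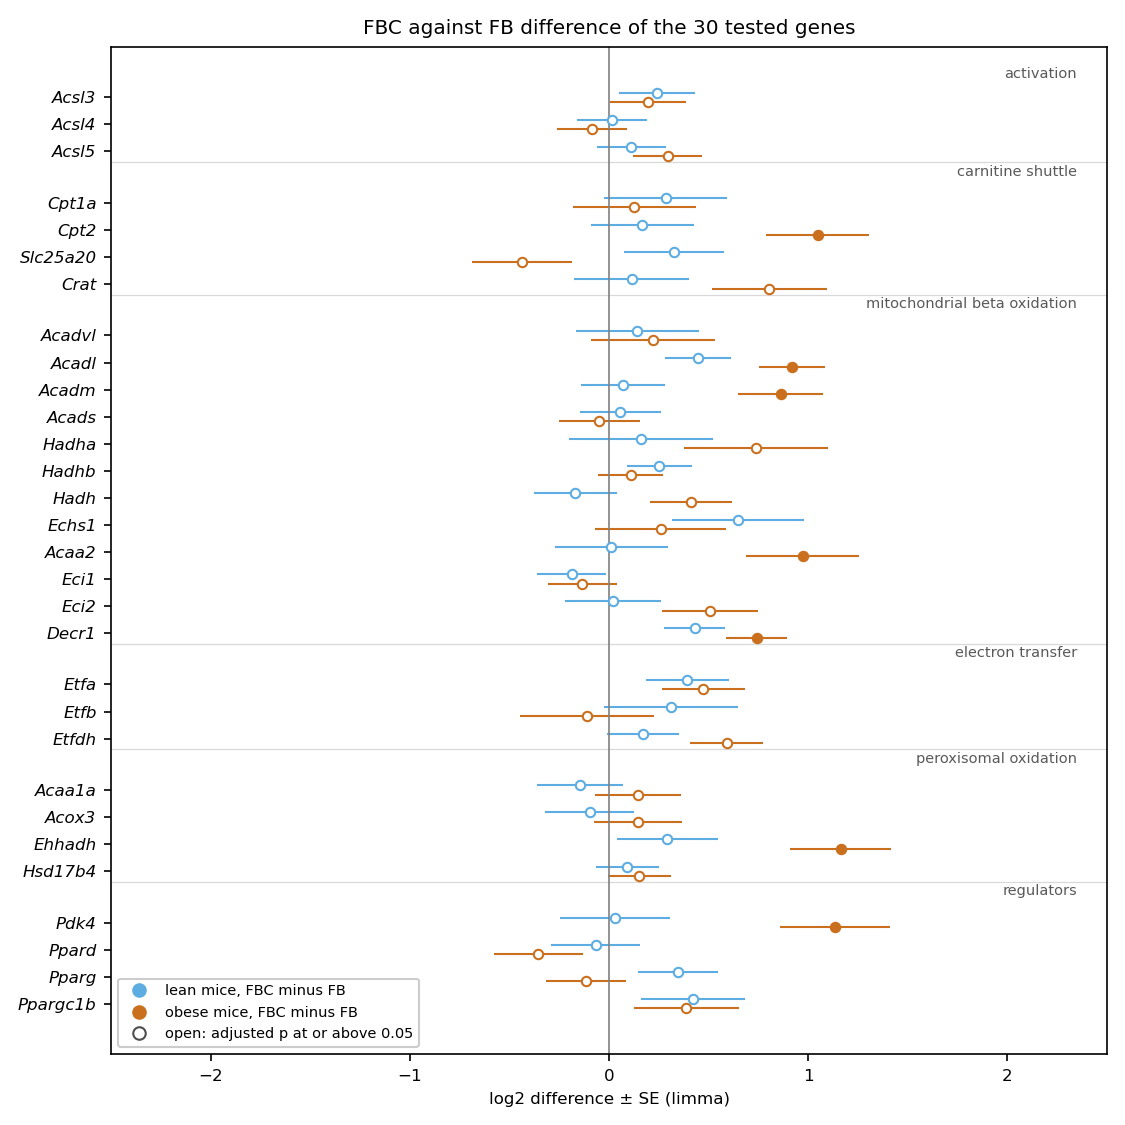
Difference between FBC and FB of the 30 tested genes, as the log2 difference of FBC minus FB on the x axis with its SE from limma, in lean (blue) and obese (orange) mice, grouped by role on the y axis. Filled points have an adjusted p under 0.05: 7 genes in obese mice, all above 0, and none in lean mice.

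In lean mice no member passed between FBC and FB by limma (0 of 30, against 0.193% of all genes, 0.151% higher, 0.042% lower). Without adjustment 2 members had p under 0.05, as did 8.2% of all genes. These were Acadl (0.45 ± 0.16, adjusted p = 0.461), at 9.84, 9.66, 9.93 and 9.55 in lean FB, and Decr1 (0.43 ± 0.15, adjusted p = 0.422). Decr1 was at 8.46, 8.56, 8.57 and 8.54 in lean FB and 9.12, 8.87, 8.99 and 8.87 in lean FBC. With Hadhb (0.25 ± 0.16, adjusted p = 0.73) they were the 3 members whose lean groups did not overlap, all higher in FBC, against 3.49% of all genes apart in that direction, 2.15% in the other and 5.63% in either. The median difference was 0.15, beside -0.000527 for all genes. Acadm was at 9.74, 9.57, 10.00 and 9.48 in lean FB, inside which range 3 of the lean FBC arrays also lay, and the difference was 0.07 ± 0.21 (95% interval -0.38 to 0.52). Acaa2 was at 9.24, 9.62, 9.59 and 9.28 in lean FB, overlapping lean FBC throughout (0.01 ± 0.28, 95% interval -0.59 to 0.61). The other called members overlapped between the lean groups. Cpt2 was at 7.59, 7.41, 7.75 and 8.11 in lean FB. Ehhadh was at 6.60, 5.64, 5.96 and 6.21 in lean FB and 6.86, 6.01, 6.41 and 6.30 in lean FBC, close to the array median in both. Crat was at 8.13, 8.86, 9.40 and 9.46 in lean FBC, a wider spread than in lean FB.

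The remaining members had no call. Of the synthetases, Acsl4, which prefers arachidonic acid, had group means of 10.68 to 10.77, and Acsl5 of 11.07 to 11.44. Acsl3 was at 8.23 ± 0.32 and 8.47 ± 0.21 in lean FB and FBC and 7.85 ± 0.15 and 8.04 ± 0.27 in obese FB and FBC (SD, n = 4 each). None of the 3 passed in any of the 5 comparisons by limma, the smallest adjusted p being 0.15 for Acsl3 in FBC. The isomerases Eci1 and Eci2, which reposition double bonds, had group means of 7.49 to 7.77 and 9.28 to 10.00. Eci2 in obese FBC was at 9.49, 10.27, 10.65 and 9.60 (0.70 ± 0.24 against lean, adjusted p = 0.0641), highest on arrays 2 and 3 as for Acaa2. The hydratase Echs1 was at 8.51 on lean FBC array 1 and 6.45 to 7.99 on all others, and the dehydrogenase Hadh at 11.39 to 12.63. Acox3, a peroxisomal oxidase for branched chains, exceeded the array median on 6 of 16 arrays.

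Ppara, the receptor that drives fatty acid oxidation in liver, was above the median on 0 of 16 arrays (4.27 to 5.81) and Ppargc1a, which encodes PGC-1 alpha, on 1 (4.75 to 5.94). Both were left out of the test. None of the 2 further Ppara probe sets was above the median on any array either, and of the 4 further ones of Ppargc1a 1 was, on 1 array. Cpt1b shared its probe set with other genes, and Acsl1 had no probe set under its own symbol here, so neither was followed.

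Of the 32 members 18 had more than 1 probe set, and for 2 of them, with the brightest not called, another was called with obesity in FBC over all probe sets. For Hsd17b4, the D-bifunctional protein of peroxisomes, the brightest changed by 0.08 ± 0.16 (adjusted p = 0.845), and the other rose from 10.49 to 11.11 (0.62 ± 0.16, adjusted p = 0.0311). For the peroxisomal thiolase Acaa1a the brightest changed by 0.17 ± 0.22 (adjusted p = 0.739), and the other fell from 7.41 to 6.28 (-1.14 ± 0.26, adjusted p = 0.0174). Acaa1a has a near-identical copy, Acaa1b, which its probe sets may not separate. The second probe set of Cpt2, near the array median, changed by 0.31 ± 0.25 with obesity in FBC and by -0.10 ± 0.25 between FBC and FB of obese mice. That of Acadl was above the median on 0 of 16 arrays, with differences of 0.07 and -0.13 in the same comparisons, and the mean of both ended the Acadl calls (0.32, adjusted p = 0.207 with obesity and 0.39, adjusted p = 0.149 between populations), as it did the Cpt2 call between populations (0.47, adjusted p = 0.123). A second Acaa2 probe set rose by 1.02 ± 0.22 (adjusted p = 0.00975 over all probe sets) in obese FBC, and another, above the median on 7 of 16 arrays, changed by 0.40 ± 0.28 (adjusted p = 0.477). Acadm, Hadha, Ehhadh, Pdk4 and Pparg were read by 1 probe set each.

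**Figure D5:**
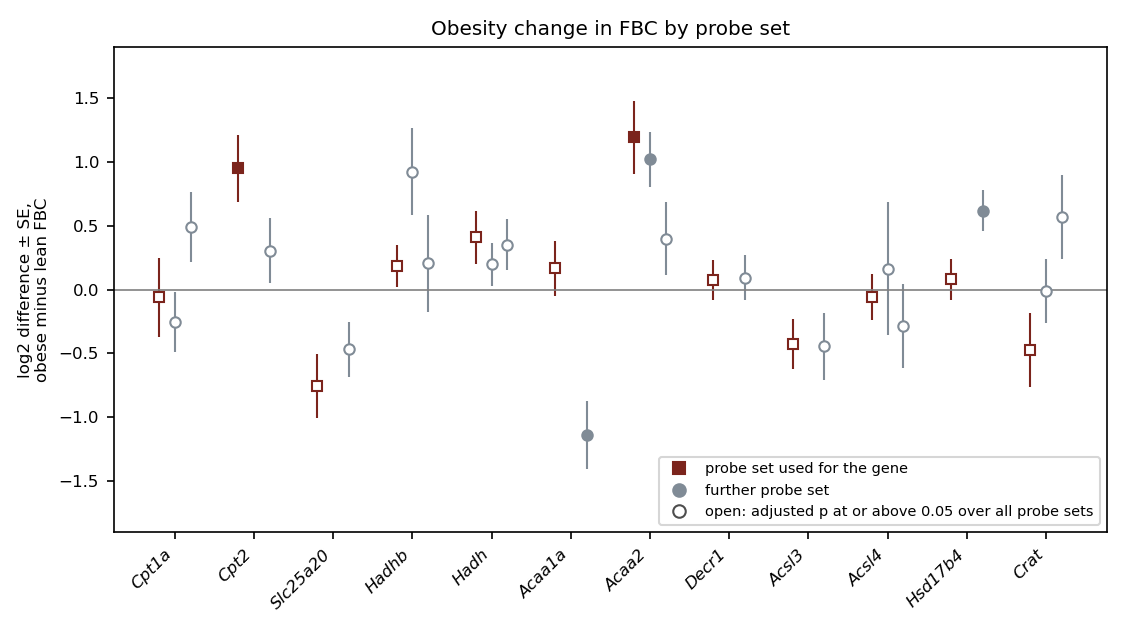
Change with obesity in FBC by probe set, as the log2 difference of obese minus lean on the y axis with its SE from limma, for the 12 genes on the x axis with more than 1 probe set above the array median on at least 4 arrays. Red squares are the probe set that stands for the gene, grey circles the others, filled where the adjusted p over all probe sets is under 0.05; the probe sets of Acaa2 and of Hsd17b4 lie above 0, while those of Acaa1a lie on both sides of it.

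Other genes of the pathway and near it were read from lists that leave the 34 out. The list of further beta oxidation genes also held genes of acetate, branched-chain amino acid and propionate metabolism, so it is not one of beta oxidation alone. The peroxisome list also held Abcd4 and Mavs, whose proteins are found mainly outside peroxisomes. Over all genes tested 8.12% rose and 5.95% fell in obese FBC, 14.1% in all, and the share called was 9.38% for further beta oxidation genes, 16% for peroxisome genes, 9.09% for tricarboxylic acid cycle genes and 14.3% for PPAR target and partner genes, so no list stood far above the share of all genes. In obese FBC, 2 of 32 further beta oxidation genes rose and 1 fell, and the median change was 0.15: Acad9 (0.73 ± 0.20, adjusted p = 0.024), a dehydrogenase that also helps assemble complex I, and Crot (0.69 ± 0.17, adjusted p = 0.0112), the peroxisomal carnitine octanoyltransferase, rose, and the acetoacetyl-CoA thiolase Acat1 (-0.66 ± 0.14, adjusted p = 0.00686) fell. Of 25 peroxisome genes 4 rose and 0 fell: catalase, Cat (0.66 ± 0.16, adjusted p = 0.0114), the import factor Pex13 (0.64 ± 0.17, adjusted p = 0.0199), Idh1 (0.60 ± 0.14, adjusted p = 0.0111) and the fatty acid transporter Abcd3 (0.54 ± 0.15, adjusted p = 0.0261). The peroxisome list had a median of 0.32, beside 0.08 for all genes. Of 22 tricarboxylic acid cycle genes 1 rose, Ogdh (0.92 ± 0.28, adjusted p = 0.0386), and 1 fell, the malic enzyme Me2 (-1.18 ± 0.19, adjusted p = 0.000625), with a median of 0.36.

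The list of PPAR target and partner genes outside beta oxidation also held pyruvate dehydrogenase kinases and phosphatases, Pdk1 and Pdp1 among them, so it is not one of PPAR targets alone. Of its 21 tested genes 3 rose and 0 fell in obese FBC, a share like that of all genes. These were Pdk1 (1.36 ± 0.25, adjusted p = 0.00217), a kinase related to Pdk4, the lipid droplet coat gene Plin2 (0.72 ± 0.17, adjusted p = 0.0111) and the pyruvate dehydrogenase phosphatase Pdp1 (0.64 ± 0.19, adjusted p = 0.0372). In obese FB 2 of the 21 rose (9.52%, against 5.89% of all genes called), Pdk1 (1.20 ± 0.25, adjusted p = 0.00969) and the fatty acid carrier Fabp5 (0.74 ± 0.18, adjusted p = 0.0213), so Pdk1 rose in both populations where Pdk4 fell. In the other lists FB had 1 call, the pyruvate dehydrogenase subunit Pdha1 (0.73 ± 0.20, adjusted p = 0.0385).

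Between FBC and FB of obese mice 8.39% of all genes were called, 5.11% higher and 3.28% lower, beside 15.6% of further beta oxidation genes, 16% of peroxisome genes, 9.52% of PPAR target and partner genes and 4.55% of tricarboxylic acid cycle genes. There 3 of the 32 further beta oxidation genes were higher, namely Ech1 (0.81 ± 0.22, adjusted p = 0.0311), Acad9 (0.78 ± 0.20, adjusted p = 0.0243) and the mitochondrial deacylase Sirt5 (0.66 ± 0.19, adjusted p = 0.0433). Another 2 on that list were lower, Acat1 (-0.61 ± 0.14, adjusted p = 0.0155) and the acetyl-CoA synthetase Acss2 (-0.95 ± 0.27, adjusted p = 0.0372), which activates acetate. Of the 25 genes on the peroxisome list 4 were higher and 0 lower, namely Abcd4, Pxmp2, Cat and Abcd3. Abcd4, which is not a peroxisomal transporter, changed by the most (1.13 ± 0.27, adjusted p = 0.0155). Plin2 (0.59 ± 0.17, adjusted p = 0.0419) and Fabp5 (0.75 ± 0.18, adjusted p = 0.0156) were higher in FBC, and Me2 was lower (-0.87 ± 0.19, adjusted p = 0.00901). In lean mice, where 0.193% of all genes were called, the 4 lists held 1 call between the populations, Fabp5 (1.03 ± 0.18, adjusted p = 0.0213).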

How the data were processed

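Macrophage RNA was amplified in 2 rounds and hybridised to 16 Affymetrix mouse arrays. The authors deposited a linear intensity for each probe set. The submitters' processing notes name Affymetrix Expression Console, and the 2% trimmed mean was 250 on every array. Its summarization method, version and build were not given in the sources used here. Here log2(intensity + 16) was quantile-normalized, since array medians ran from 5.69 to 6.06. Of 45101 probe sets, 34945 carried 1 gene symbol in the platform annotation, 932 several and 9160 none, and 64 were controls; 34741 gene IDs were in the RefSeq table and 0 symbols were renamed. Each gene was read by its brightest single-symbol probe set, and the 11908 genes that exceeded the median of 4 or more arrays were tested in 1 limma model of the 4 groups (12 residual and 16.5 total degrees of freedom) with Benjamini-Hochberg adjustment. Members with a call are given on every array, and their other probe sets are described. Of each pathway list the up to 3 called genes of largest change were to be named in each comparison; where 5 or fewer were called, the rest were named too, after their values were seen. Promoter motifs were searched in the 250 bases before the start, since the 50 after it can be UTR. The members, lists and settings were chosen with earlier results of these data known. The tools were limma 3.58.1 under R 4.3.3, with matplotlib 3.10.9 under Python 3.11.15 for the figures. On simulated arrays the model recovered, of 100 genes each changed by 1 and by 2 log2 units, 64 and 94 in FB with obesity, 50 and 94 in FBC, 57 and 92 between populations in lean and 49 and 93 in obese mice, with 5, 7, 6 and 6 false calls. Their noise was independent and of equal spread on all arrays, unlike that of the real ones. Residuals of like-numbered lean FB and FBC arrays had correlations of 0.135, 0.231, 0.299 and 0.595. Lean FB array 1 correlated best with lean FBC array 3, and both number 4 arrays, at 0.595, had a high actin ratio. The labels say that both populations came from 4 lean and 4 obese mice. The main model held no term for the mouse, and like numbers were taken as pairs only in the alternatives with a replicate or mouse block. Alternatives were the filter, probe set rule, normalization, pseudocount, variance model, array weights, samples fitted, replicate block and arrays left out. Marker sums add the deposited intensity of a list's probe sets.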

Additional observations from a re-analysis of the deposited data

Results flagged for a closer look

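In 6 of the 128 groups of 4 arrays (32 genes, 4 groups), 1 array lay so far from the other 3 that its gap passed Dixon's 95% critical value. Chance gives about 1 in 20 groups, here 6.4. Hadha was at 5.76 on obese FB array 4, against 6.86 to 7.08 on the others, and Hadhb at 11.70 on lean FB array 4, against 12.13 to 12.22. Both arrays had an actin ratio above 40. The other 4 were all on lean FBC array 1: Echs1 at 8.51 (others 7.14 to 7.26), Acsl3 at 8.79 (8.35 to 8.37), Acsl4 at 10.57 (10.78 to 10.80) and Acox3 at 6.06 (5.45 to 5.51). The actin ratio of that array was 4.17.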

How the results depend on the processing

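The calls were recomputed under 14 other settings (13 for the interaction) and with each array left out. No called change reversed its sign in any of them. With array weights the counts of called members rose to 5 in FB and 12 in FBC with obesity, to 2 between lean populations and to 5 for the interaction, while 33.5%, 34.6%, 11.1% and 12.9% of all genes were called. With arrays left out, the counts ran from 2 to 3 in FB, 2 to 8 in FBC, 0 to 0 between lean populations, 4 to 8 between obese populations and 0 to 0 for the interaction. Among the other settings, calls ended for Pdk4 in FBC under 6 of 14 (adjusted p up to 0.0886), Acaa2 between obese populations under 5 (up to 0.108), Hadha and Pparg in FBC under 2 each (up to 0.0541 and 0.0668). With probe sets averaged by gene, Crat in FB, Acadl in both FBC comparisons and Cpt2 between obese populations lost their calls. The mean takes in the dimmer probe sets of each gene, which changed less or the other way, as given above. Why the probe sets differ was not tested. With the replicate block as a fixed term the counts were 3, 9, 0, 7 and 0, and with mouse as a random block 3, 8, 0, 8 and 0, and no call made without it was lost. In obese mice like-numbered arrays had correlations of 0.31, 0.033, -0.03 and -0.137. In neither genotype do the correlations settle which arrays came from the same mouse.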
